A study of Mus musculus with 9 samples.

Results

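Spp1 encodes osteopontin, and its transcript was followed through the mouse-derived tumor microenvironment (TME) of glioblastoma (GBM) patient-derived orthotopic xenografts (PDOXs). It is 1 of 12954 genes listed in each of the 9 Drop-seq count files, and it was chosen because its level in myeloid cells was known to differ between tumors and normal brain. Its own levels are therefore given as a description, without a test, and tests are kept for the other genes. In Drop-seq, cells are caught in droplets with beads that carry barcodes, and 3′ ends of transcripts are counted as unique molecular identifiers (UMIs). Levels are given as CPM, the UMIs of a gene relative to all UMIs of the same cells.

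The samples are the brain of 1 tumor-free nude mouse (titled Nude-Brain, here Nu-NB), the TME of 7 PDOXs without treatment (P3, P8, P13, T16, T101, T192 and T233) and the TME of 1 P3 PDOX after temozolomide (P3TMZ). All mice were female athymic nude mice, which lack mature T cells, also the tumor-free one. Tumors were grown from GBM organoids implanted in the right frontal cortex, so that tumor cells are human, and the files hold the cells that the authors took as mouse, and the control of P3TMZ was given vehicle. Each sample is 1 library, the age of the mice is not given in the sources used here, and a single patient gave rise to both T192 and T233. FACS was used for Nu-NB and P8 and magnetic depletion of human cells for the other 6 untreated PDOXs. The same pair of files carries older gene symbols, so that sort and symbol release cannot be told apart.

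Of 15391 cells that passed the filters on detected genes and mitochondrial UMIs, 14622 were kept, 722 to 2770 per sample, with a median of 521 to 1303 UMIs before the doublet step. Only 14 barcodes were found in more than 1 library, in 31 cells. Cells were clustered and clusters named from marker genes, with names ending in "-like". No name was given to 1883 cells, 46.3% of the cells of T101, 29.0% of P3, 27.0% of P3TMZ and 2.88 to 11.4% of the other samples. Most of them were in a cluster of 1016 cells led by H4c3 and pseudogenes and in one of 685 cells, 648 of T101, led by Cnot2, Rab3ip, Cand1 and Frs2, with none in Nu-NB or P8, and the species of these cells was not tested. Myeloid-like cells were 4648 of them, 700 in Nu-NB, 249 to 1065 in the untreated PDOXs and 329 in P3TMZ, and the 10 pan-myeloid markers, among them Ctss, C1qa, Tyrobp and Csf1r, made up 30666 CPM of these cells in Nu-NB and 28129 to 42571 CPM in the untreated PDOXs.

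Osteopontin is a secreted, heavily phosphorylated glycoprotein of the extracellular matrix, best known from bone and from activated macrophages. Cells bind it through its arginine-glycine-aspartate (RGD) motif by integrins that hold the alpha chain Itgav, through an adjacent site by integrins with Itga4 or Itga9, and through CD44. Thrombin, matrix metalloproteases and cathepsin D cut it, transglutaminase crosslinks it and the secretory kinase Fam20c phosphorylates it. In the brain it is a well-known transcript of disease-associated microglia, the state in which microglia lower P2ry12 and Tmem119 and raise Apoe, Lpl and Cst7, whereas resting microglia of adult brain hold little of it.

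The gene lies on the plus strand at chr5:104435118-104441050 (GRCm38, GENCODE M21), with 7 transcripts, all of them coding. The coding strand around the RGD motif is shown because it encodes the motif bound by the integrins described further on. It lies at chr5:104439451-104439519 in exon 7 of 8 of the transcript with the longest coding part, in the coding sequence. Capitals mark the 9 bases of the RGD codons at chr5:104439481-104439489, residues from 145 on of 295, and 6 of the 7 transcripts hold them. The site bound by Itga4 and Itga9 follows directly after the capitals. A count of 3′ ends does not tell these transcripts apart.
Spp1 exon 7, RGD codons in capitals: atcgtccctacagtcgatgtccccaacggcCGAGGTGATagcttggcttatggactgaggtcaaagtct

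Myeloid-like cells of Nu-NB held almost no Spp1, and those of every tumor held it among their most abundant transcripts. In Nu-NB, 8 Spp1 UMIs were counted in 700 myeloid-like cells, or 19.3 CPM (95% exact Poisson interval 8.34 to 38.1). The untreated PDOXs, from the highest, stood at 13063 CPM in P3 (12643 to 13493), 9598 in P8 (9440 to 9758), 8415 in T233 (8233 to 8600), 4951 in T192 (4867 to 5036), 3504 in T16 (3268 to 3752), 3412 in P13 (3305 to 3521) and 1326 in T101 (1192 to 1473). The mean was 6324 ± 4159 CPM (SD, n = 7). T16 and P13 are neighbours whose intervals overlap, while all other neighbours in this order lie apart by more than counting error, which is the only error these intervals cover. The lowest PDOX, T101, lies far above Nu-NB, so the groups do not overlap.

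Among all genes outside the mitochondrial genome, Spp1 ranked between 5 and 13 in the myeloid-like cells of 6 untreated PDOXs (5 in P8, 6 in P3, 8 in T233, 12 in T16, 13 in T192 and in P13), 60 in T101 and 6358 of 11227 genes with a UMI in Nu-NB. In P3 its 13063 CPM were 1.31% of all UMIs of these cells and in T101 0.133%. In P3TMZ Spp1 ranked 3 at 22723 CPM (22360 to 23090), 2.27% of UMIs, above P3 and above each other sample. With 1 mouse on either side, P3TMZ and P3 were compared as libraries and not tested.

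The share of cells that carried Spp1 gave another order than the level. To set samples of unequal depth side by side, each cell was thinned to 500 UMIs, and cells below that were left out. A Spp1 UMI was then found in 4 of 336 cells of Nu-NB (1.19%, exact binomial 95% interval 0.325 to 3.02%). The share was 85.1% in T233, 76.7% in P8, 75.8% in P3, 64.7% in T192, 30.8% in T101, 24.6% in T16 and 20.1% in P13, with a mean of 54.0% ± 27.8 (SD, n = 7). Without thinning it was 24.5 to 84.9% in these PDOXs and 0.857% in Nu-NB. In T233, P8, P3 and T192 most myeloid-like cells thus carried Spp1, and in T101, T16 and P13 most did not. P13 held more Spp1 by level than T101, yet fewer of its cells carried it, 20.1% (16.9 to 23.6%) against 30.8% (24.8 to 37.3%), and these intervals do not overlap. Without thinning the order turned, with 33.6% in P13 and 31.3% in T101.

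**Figure D1:**
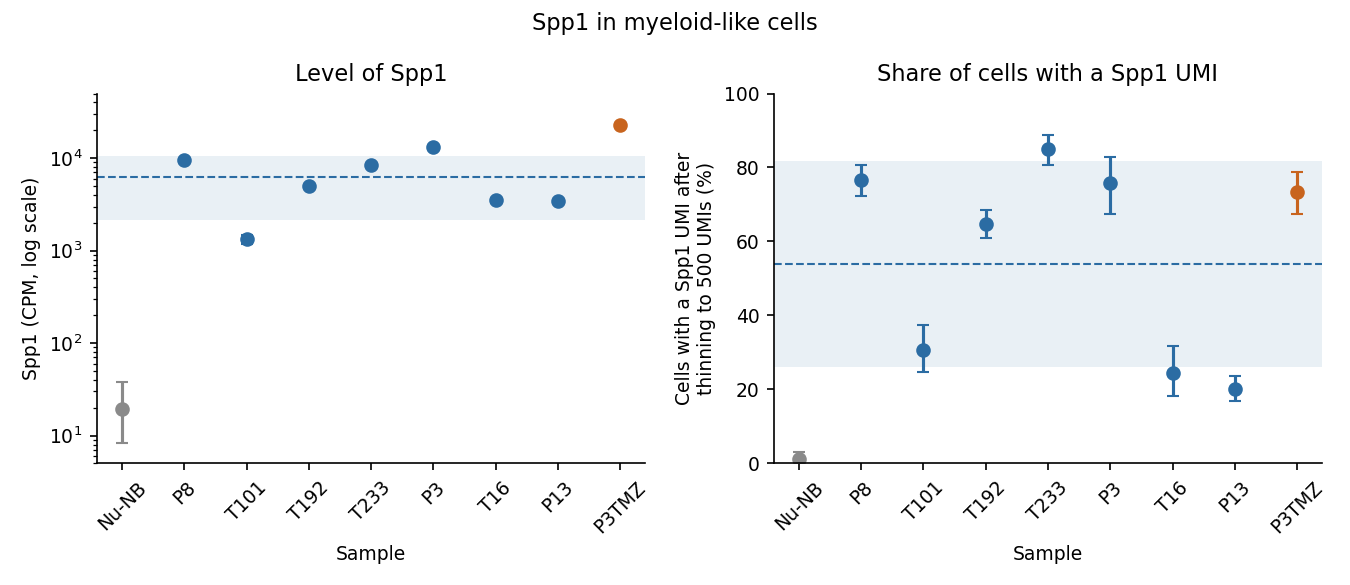
Spp1 in myeloid-like cells of each sample, left as CPM on a log scale with exact Poisson intervals and right as the percentage of cells with a Spp1 UMI after thinning to 500 UMIs with exact binomial intervals. Blue marks are untreated PDOXs, grey Nu-NB and orange P3TMZ, and the dashed line and band give the mean and SD of the 7 untreated PDOXs. Nu-NB lies at 19.3 CPM and 1.19% of cells, below every PDOX on both axes, while T16 and P13 lie above T101 by level and lowest of all PDOXs by share.

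The same 2 PDOXs stood apart in how unevenly Spp1 was spread over cells. In T16 and P13 the top 10% of thinned cells held 86.8% and 86.3% of all Spp1 UMIs, against 33.1% in T233, 34.4% in P8, 38.5% in P3, 42.6% in T192 and 60% in T101. The variance of Spp1 UMIs per cell was 20.6 times the mean in T16 and 14.0 times in P13, and 3.25 to 7.91 times in the other 5. In T16 8 of 167 cells (4.79%) had 10 or more Spp1 UMIs of 500 and held 68.0% of its Spp1, and in P13 9 cells (1.58%) held 47.1%. A few cells with very many transcripts thus made up the level of these PDOXs, whereas P8 and T233 had 3 to 9 Spp1 UMIs in 44.9% and 50.2% of their cells.

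P3 and P3TMZ lay apart by the cells with most Spp1. A Spp1 UMI was found in 73.3% of thinned cells of P3TMZ (67.3 to 78.7%) and in 75.8% of those of P3 (67.4 to 82.9%), and these intervals overlap. Cells with 10 or more Spp1 UMIs of 500 were 89 of 247 (36.0%) in P3TMZ and 25 of 128 (19.5%) in P3. Pan-myeloid markers were at 45281 CPM in P3TMZ and 42571 CPM in P3. The top 10% of cells held 34.6% of Spp1 UMIs in P3TMZ, which is within the range of the untreated PDOXs.

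Within myeloid-like cells, Spp1 was low in the cluster of resting microglial genes and high in the cluster led by Lpl, Spp1 and Ccl6. Cells of the clusters that also met the rule for microglia stood at 6505 ± 4285 CPM (SD, n = 7), from 1106 in T101 to 13703 in P3, and at 2.76 CPM in Nu-NB, where 1 UMI was counted in 619 cells. Among them, the cluster led by P2ry12, Gpr34 and Tmem119, genes of resting microglia, had 1257 ± 1106 CPM (n = 7), from 156 in P13 to 3112 in P3. The cluster led by Lpl, Spp1, Ccl6, Cd74, Cst7 and Ch25h had 9246 ± 3298 CPM (n = 6), from 5267 in T192 to 14935 in P3. In P13 these clusters stood at 156 CPM (110 to 215) in 229 cells and 9607 CPM (9250 to 9975) in 65 cells, and in T16 at 267 CPM in 122 cells and 7129 CPM in 21. Spp1 and the listed genes that are no markers, such as Lpl and Cst7, were kept out of the clustering, while markers such as P2ry12 and Gpr34 were not, so that this contrast is a description.

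Depth moved with that contrast, since cells of the Lpl cluster had medians of 2181 to 3763 UMIs in the 6 PDOXs and those of the P2ry12 cluster 478 to 930 in the 7. A further cluster, led by Spp1, H2-Aa, Ccl6 and Lyz2 and given no microglial name, had medians of only 409 to 805 UMIs in the PDOXs and also held 7698 ± 4437 CPM (n = 7), from 2225 in P13 to 13078 in P3. High Spp1 was thus found in deep as well as in shallow cells. In Nu-NB the P2ry12 cluster took 612 of the 700 myeloid-like cells.

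In the PDOXs with at least 10 of them, monocyte-like and border-associated macrophage-like cells had less Spp1 than microglia-like cells of the same library, whereas in Nu-NB they had 246.6 and 51.6 CPM, from 3 UMIs and 1 UMI, in 1 cell each, against 2.76 CPM. By share of cells with a Spp1 UMI without thinning, P13 had the other order, with 43.1% of monocyte-like (30.2 to 56.8%) and 27.1% of microglia-like cells (22.6 to 32.1%). Monocyte-like cells, named from Ly6c2, Ccr2, Plac8 and other genes of blood monocytes, had 2027 ± 1506 CPM in the 4 PDOXs with at least 10 of them, with 576 in T101, which had 103 of these cells, and 3604 in P8. In T192 all 36 UMIs of its 11 monocyte-like cells came from 1 cell. In Nu-NB all 3 UMIs of its 15 monocyte-like cells likewise came from 1 cell. Border-associated macrophage-like cells, named from Mrc1, Cd163, Lyve1 and F13a1, had 181 CPM in T16 (49.3 to 463) and 286 CPM in P13 (131 to 543), the only PDOXs with 10 or more, while microglia-like cells had 3196 and 4541 CPM in the same libraries. Cycling myeloid-like cells stood at 2855 ± 2131 CPM in 6 PDOXs.

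In most other classes of the PDOXs Spp1 was found at far lower levels. Endothelial-like cells (Cldn5, Flt1, Pecam1) had a median of 113.5 CPM over 7 PDOXs, from 27.2 in T101 to 1103 in T233. Astrocyte-like cells (Aldoc, Slc1a3, Aqp4) had a median of 111.5 CPM over 6, from 0 in T101 to 668 in T192, and cells like oligodendrocyte progenitors (OPC-like; Pdgfra, Olig1, Cspg4) 103.8 CPM over 6. Mural-like cells (Rgs5, Vtn, Acta2) had a median of 66.7 CPM over 7. After thinning, a Spp1 UMI was found in 0.862 to 13.8% of endothelial-like cells and 0 to 15.9% of astrocyte-like cells. In Nu-NB these classes held 1 Spp1 UMI, in 851 astrocyte-like cells (1.68 CPM, 0.0426 to 9.38), and 0 in 35 endothelial-like cells, where 3 UMIs would have been 174.8 CPM. Median depth was 464 to 1226 UMIs per endothelial-like cell and 529 to 1252 per myeloid-like cell in the PDOXs.

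**Figure D2:**
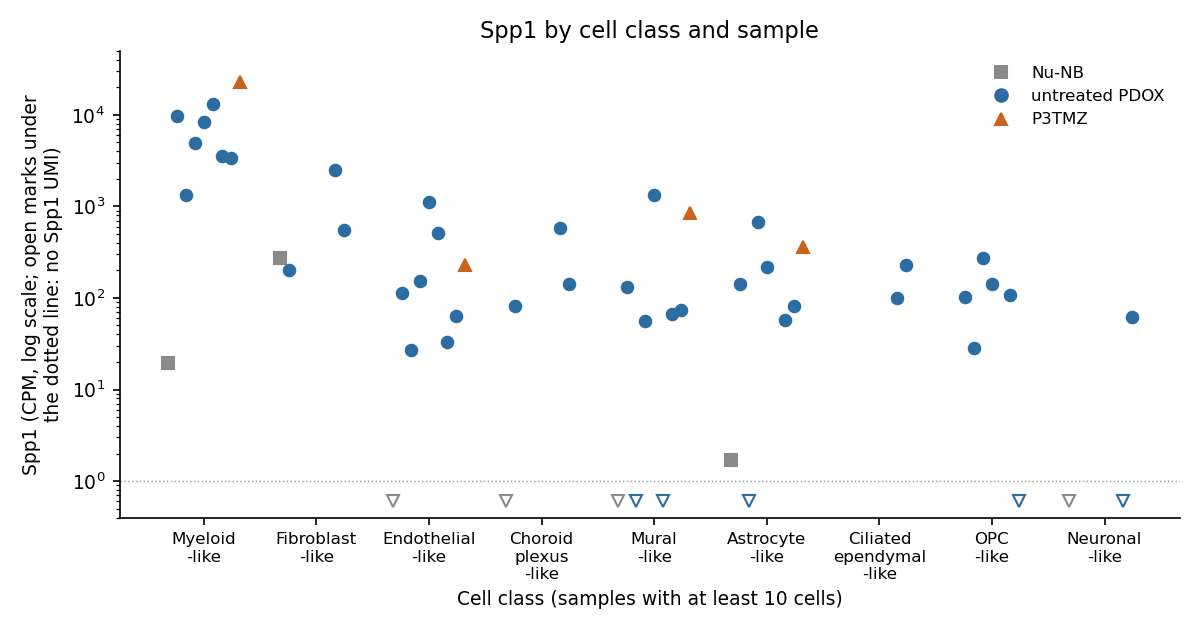
Spp1 in CPM on a log scale by cell class, one mark per sample with at least 10 cells of the class (blue untreated PDOXs, grey squares Nu-NB, orange triangles P3TMZ), with samples that had no Spp1 UMI as open marks under the dotted line. Myeloid-like cells of PDOXs lie between 1326 and 13063 CPM, and medians of endothelial-like, astrocyte-like, OPC-like and mural-like cells lie near 100 CPM.

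In droplet data free RNA gives UMIs to cells that do not express a gene, so Spp1 was set beside the pan-myeloid markers counted in the same cells. In endothelial-like cells the number of Spp1 UMIs per 100 pan-myeloid marker UMIs was 31.4 in P3, 20.2 in T233, 16.3 in P8, 9.57 in T16, 9.29 in P13, 8.90 in T192 and 3.64 in T101. The same ratio in myeloid-like cells was 30.7 in P3, 22.2 in T233, 25.1 in P8, 11.5 in T16, 12.1 in P13, 12.7 in T192 and 4.44 in T101. The exact intervals of both ratios overlap in 6 of 7 PDOXs and lie below the myeloid value in P13, and in P3TMZ the ratios were 46.0 and 50.2. No PDOX thus had more Spp1 beside myeloid markers in endothelial-like than in myeloid-like cells beyond counting error, and where these UMIs came from was not tested. In mural-like cells the ratio overlapped in 1 of 4 PDOXs with at least 50 marker UMIs and lay below in 3.

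Barcodes with under 200 detected genes, which were not taken as cells, held Spp1 as well. They had 15.0 CPM of Spp1 in Nu-NB and 99.2 to 3754 CPM in 6 untreated PDOXs (P13 has only 3 such barcodes), with 26.0 Spp1 UMIs per 100 marker UMIs in P8, 25.3 in P3, 19.0 in T233, 9.47 in T192, 4.57 in T16 and 2.89 in T101. The intervals overlap that of the myeloid-like cells in 2 of these PDOXs and lie below it in 4. In astrocyte-like cells the ratio overlapped in 2 of 6 PDOXs and lay below in 4, so that Spp1 did not exceed the myeloid proportion in any.

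Fibroblast-like cells, led by Ptgds, Dcn, Apod and Lum, exceeded that proportion in both PDOXs with enough marker UMIs. They held 33.3 Spp1 UMIs per 100 marker UMIs in P13 (20.7 to 52.1), where myeloid-like cells held 12.1 (11.7 to 12.5), and 27.1 in T16 (19.3 to 37.5) against 11.5 (10.7 to 12.4). In P13 the 27 UMIs came from 14 of 37 cells with at most 5 in a cell, while in T16 36 of 48 UMIs came from 1 cell. Fibroblast-like cells of Nu-NB held 3 Spp1 UMIs in 17 cells, 270 CPM (55.7 to 790) beside 19.3 CPM in its myeloid-like cells, and these UMIs came from 2 cells. P8, which had most of these cells, had 10 UMIs in 50 of them (204 CPM) and 26.3 per 100 of only 38 marker UMIs (11.7 to 53.8), which overlaps the 25.1 of its myeloid-like cells. A ratio above that of myeloid-like cells was also found in choroid plexus-like cells of T16 (26.1), where 62 of 69 UMIs came from 1 cell, and in B cell-like cells of T101 (29.0, 18.8 to 43.6, against 4.44), where 18 of 31 did. In unnamed cells of P3TMZ it was 67.8 (53.1 to 86.4) against 50.2, with at most 9 of 116 UMIs in a cell. Of these 195 cells, 191 were in the cluster led by H4c3 and pseudogenes, whose species was not tested.

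Clusters in which cells carried markers of several classes held a large part of all Spp1. Myeloid-like cells held 98.6% of the Spp1 UMIs of kept cells in P8, 94.2% in P3TMZ, 90.7% in T192 and 81.5% in T101. They held 68.8% in P3, 67.2% in T233, 42.0% in P13 and 27.9% in T16, where mixed clusters held 28.5%, 31.6%, 55.3% and 65.5%. Mixed clusters were 10.4% of the cells of T16 and 19.0% of those of P13, and their median depth was 2464 and 3262 UMIs per cell, against 631 and 1252 in myeloid-like cells. Among the small clusters, cells with ependymal markers that also met the myeloid rule had 680 to 4317 CPM, and the cluster that met only the ependymal rule had 205 CPM. Likewise, choroid plexus clusters with myeloid markers had 2212 to 5178 CPM and those without 276 and 328 CPM. How far these cells are pairs of cells in a droplet was not tested.

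**Figure D3:**
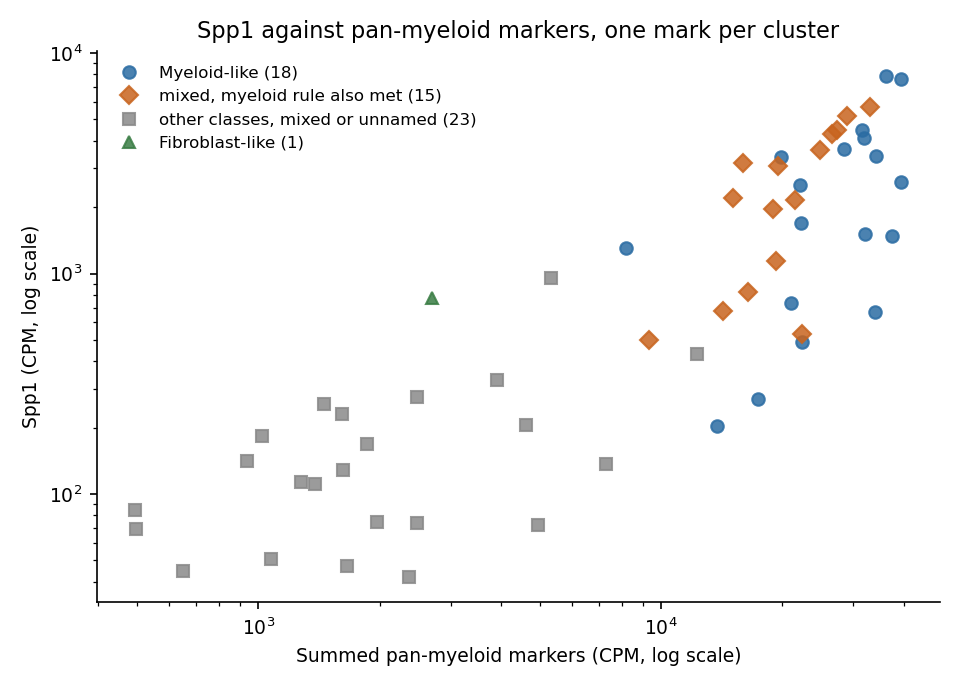
Spp1 against the sum of 10 pan-myeloid markers, both in CPM on log scales, with one mark for each of 57 clusters with at least 10 cells and a Spp1 UMI in the 7 untreated PDOXs (summed over PDOXs). Clusters with markers of another class that also met the myeloid rule (orange) lie at 500 to 5689 CPM of Spp1, the 23 clusters of other classes, mixed without the myeloid rule or unnamed (grey) at 41.9 to 952 CPM, and the fibroblast-like cluster (green) at 776 CPM with 2691 CPM of myeloid markers.

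To find what goes with Spp1, myeloid-like cells of each untreated PDOX were split by their own Spp1 content after thinning to 500 UMIs. Cells with 3 or more Spp1 UMIs (15 to 239 per PDOX) were compared with cells without any (31 to 454), as UMIs summed per PDOX, with the PDOX as a block and Spp1 itself left out. In edgeR's quasi-likelihood test with Benjamini-Hochberg adjustment (FDR ≤ 0.01, |log2FC| ≥ 0.5), 15 of 744 tested genes were higher in Spp1-high cells (2.02%) and 5 were lower (0.672%), 2.69% in either direction. The higher genes were Cst7, Ccl6, Cd63, Apoe, Lpl, Apoc1, Fn1, Ctsd, Csf1, Ctsb, Colec12, Pld3, Gnas, Fth1 and Lyz2, and the lower ones P2ry12, Gpr34, Malat1, Jun and Maf. Ctsb, Gnas, Fth1 and Lyz2 had log2FC of 0.74 to 0.82 and Maf of -1.12, with Fth1, Lyz2 and Maf of the opposite sign in T101 alone. Without P8 7 genes were higher, without T233 8 were higher and 1 lower, and without P13 3 were lower. Cell filter, doublet removal and thinning depth moved these counts further, as given in the closing section on processing.

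Apoc1 and Lpl, genes of lipoproteins and their breakdown, had the largest changes among the named genes. Apoc1, an apolipoprotein, had a median of 703 CPM in Spp1-high cells (267 to 1195 over 7 PDOXs) and 105.6 CPM in Spp1-negative cells (32.9 to 315), a log2FC of 1.99 ± 0.33 (SE, edgeR FDR = 0.000107, higher in 7 of 7 PDOXs). Lpl, which encodes lipoprotein lipase, had a median of 2489 CPM (1389 to 3339) against 382 CPM (89.3 to 1728), a log2FC of 1.87 ± 0.29 (FDR = 5.1e-05, 7 of 7). Its difference was 4.05 in T16 and 3.52 in P13, the PDOXs whose Spp1 was held by few cells, and 0.67 to 2.46 in the other 5. In P3TMZ, which was not in the fit, the difference of Lpl was 3.68, although the top 10% of its cells held only 34.6% of Spp1 UMIs. Apoe, the main apolipoprotein of the brain, had a median of 35336 against 16837 CPM, with a log2FC of 1.02 ± 0.16 (FDR = 5.04e-05, 7 of 7). Of the 10 genes of the lipid handling list 4 were tested, and Apoc1 alone passed. Its other tested members, Npc2, Lipa and Ch25h, had log2FC of 0.55, 0.53 and 0.76.

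Among the genes called, members of the disease-associated microglia list were frequent. Cst7, an inhibitor of lysosomal proteases, had a median of 1327 CPM (641 to 1904) against 286 CPM (145.7 to 821), a log2FC of 1.60 ± 0.21 (FDR = 7.49e-06, 7 of 7). Cd63, a tetraspanin of late endosomes, had a log2FC of 1.22 ± 0.18 (FDR = 2.11e-05), and the lysosomal protein Pld3 of 1.20 ± 0.27 (FDR = 0.00532), both in 7 of 7, although the call of Pld3 was lost in 10 of 16 alternatives. Ctsd, the lysosomal protease that can cut osteopontin, rose from 8772 to 14806 CPM on average (0.84 ± 0.15, FDR = 0.000537). Of the 24 genes of the disease-associated microglia list 18 were tested, of which 8 rose (Apoe, Cst7, Lpl, Cd63, Ctsb, Csf1, Fth1 and Ccl6) and none fell, and the median log2FC of the 18 was 0.88 against -0.01 over all 744 genes. The call of Fth1 was kept in 11 of 20 alternatives and that of Ctsb in 14 of 20. Itgax, Axl and Timp2 had log2FC of 1.04, 0.99 and 0.97 without passing, and Trem2, the lipid receptor of microglia, had 0.49.

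Secreted proteins and a scavenger receptor were also among the calls. Fn1, which encodes fibronectin, another matrix protein bound through an RGD motif, had a median of 613 against 79.9 CPM and a log2FC of 1.79 ± 0.32 (FDR = 0.000437, 7 of 7). The chemokine gene Ccl6 had a log2FC of 1.74 ± 0.24 (FDR = 1.22e-05), the growth factor gene Csf1 of 1.47 ± 0.30 (FDR = 0.00194) and the scavenger receptor gene Colec12 of 1.31 ± 0.30 (FDR = 0.00532), each in 7 of 7 PDOXs. The call of Colec12 was kept in 8 of 17 alternatives and that of Csf1 in 6 of 11. Csf1 and Colec12 had no UMI in the Spp1-negative cells of P3, so that the difference in that PDOX rests on the prior count of the fit. Spp1-high cells of T101 and T16 gave sums of only 6829 and 8535 UMIs. Csf1 at 117.2 CPM in T16 and Fn1, Colec12 and Pld3 at 292.9 CPM in T101 therefore rest on very few UMIs.

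P2ry12, the purinergic receptor of resting microglia, fell most. It had a median of 512 CPM in Spp1-high cells (107 to 813) and 2023 CPM in Spp1-negative cells (495 to 2431), a log2FC of -1.70 ± 0.23 (FDR = 7.49e-06, lower in 7 of 7). Gpr34, another receptor of resting microglia, had a log2FC of -1.04 ± 0.20 (FDR = 0.00107) and was lower in 6 of 7, T101 being the exception at 0.04. Of the 14 genes of the homeostatic list 11 were tested, these 2 fell and none rose, with a median of -0.43. Jun, of the immediate early genes, had a log2FC of -0.93 ± 0.20 (FDR = 0.00239, 7 of 7), the only one of 6 tested in that list to pass, although the log2FC of each of the 6 was negative, with a median of -0.53. The nuclear RNA Malat1 had a log2FC of -0.68 ± 0.14 (FDR = 0.00149, 7 of 7).

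**Figure D4:**
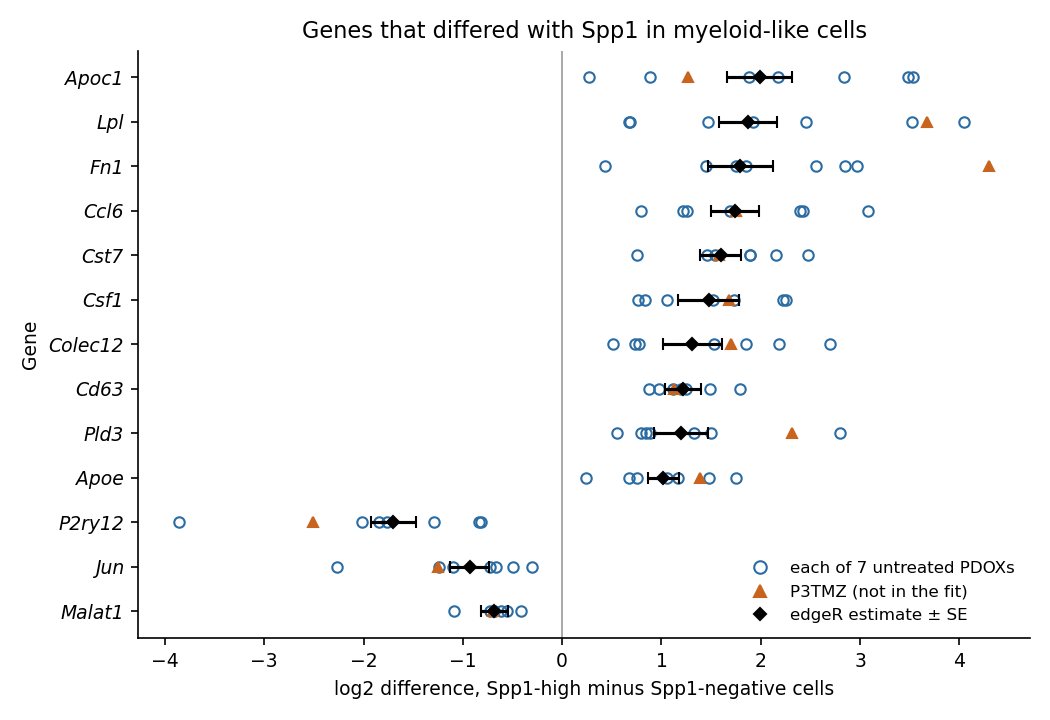
Log2 difference between Spp1-high and Spp1-negative myeloid-like cells for the 10 higher and 3 lower genes with the largest changes among those called that changed the same way in each PDOX and had at least 100 CPM. Open circles are the 7 untreated PDOXs, orange triangles P3TMZ, which was not in the fit, and black marks the edgeR estimate ± SE. All 13 genes have the sign of the fit in P3TMZ as well.

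No tested member of the MHC class II or inflammatory list was called, while the chemokine gene Ccl6, of the disease-associated microglia list, was. Of the MHC class II list 3 genes were tested and 0 passed, with H2-Aa at 0.09 ± 0.35 and Cd74 at -0.08 ± 0.24 (log2FC ± SE). Of the inflammatory list 7 were tested and 0 passed, with Il1b at -0.07 ± 0.26 and Ccl4 at 0.11 ± 0.20. Of the glycolysis and hypoxia list 4 were tested and 0 passed, although Aldoa and Hif1a stood at 1.04 and 0.94, and of the interferon list only Ifitm3 could be tested, at -0.55 ± 0.26. With standard errors of this size a change past the threshold is not excluded for these genes. The cycling genes were too low to be tested, as were the markers of monocytes, border-associated macrophages and lymphocytes that every PDOX file lists. Other such markers, among them Plac8, Cd163 and Cd3e, are not listed in every PDOX file, which is not a level of 0.

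Spp1-high cells also differed in depth and type. Before thinning they had medians of 1012 to 2888 UMIs against 830 to 1214 in Spp1-negative cells, more in 7 of 7 PDOXs. The median percentage of mitochondrial UMIs was 3.24 to 9.77% in Spp1-high and 4.42 to 10.7% in Spp1-negative cells, higher in the former in 2 of 7. Cells of the cluster without a further type were 19.5 to 66.7% of Spp1-high and 5.73 to 46.9% of Spp1-negative cells, a larger share in 6 of 7. Monocyte-like cells were 0 to 6.67% against 0 to 34.2%, and cycling cells 2.27 to 26.8% against 6.12 to 16.3%, each a larger share of Spp1-high cells in 1 of 7. When monocyte-like, border-associated macrophage-like and cycling clusters were left out, 15 genes were higher and 15 lower, and 10 and 5 of these were called with them as well. None of the 10 pan-myeloid markers passed. Of the markers of other brain cells and of blood only Ttr, of choroid plexus, could be tested, at -0.31. The part of depth beyond the thinning, of mitochondrial share and of cell type in these differences was not tested.

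Summed over cells binned by Spp1 content, the disease-associated microglia list stood higher with each bin on average. Its 21 genes listed in every file summed to 38640 ± 16571 CPM (SD, n = 7) in cells with 0 Spp1 UMIs of 500, to 56941 ± 19498 with 1 to 2, and to 69144 ± 18172 with 3 to 9. Only P8, T192, T233 and P3 had at least 10 cells with 10 or more, and their sums went from 90312 to 104097, 84310 to 98677, 85318 to 109601 and 62926 to 85910 CPM between 3 to 9 and 10 or more UMIs. Apoe made up much of this sum, and without it the means over 7 PDOXs were 19434, 26314 and 33499 CPM. Cells with 3 to 9 UMIs lay above those with 0 in 7 of 7 PDOXs with and without Apoe. Even cells without a Spp1 UMI lay at 20397 to 64735 CPM in the PDOXs, above the 11006 CPM of Nu-NB. The homeostatic list went from 18378 ± 5078 to 14552 ± 3291 CPM between 0 and 3 to 9 UMIs, lower in 6 of 7 PDOXs (not in T101), and was 33175 CPM in Nu-NB. Lipid handling genes went from 2873 to 4514 CPM, higher in 7 of 7. MHC class II genes were higher in 4 of 7 and inflammatory genes in 5 of 7 PDOXs.

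**Figure D5:**
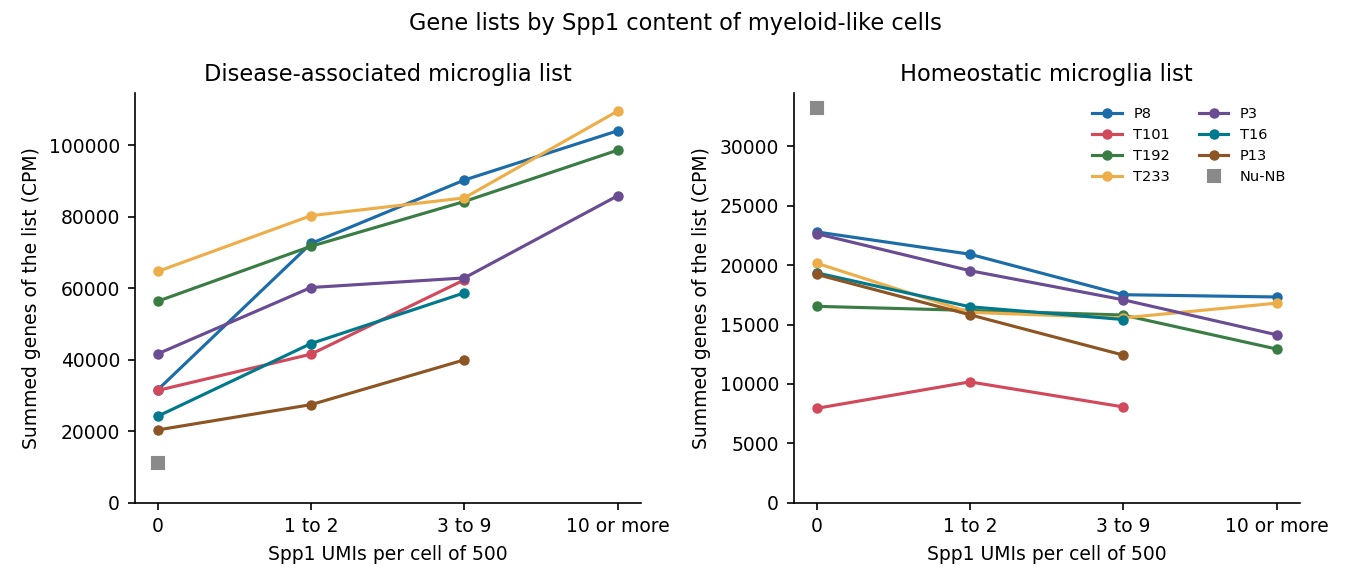
Summed CPM of the disease-associated microglia list (left) and the homeostatic microglia list (right) in myeloid-like cells binned by Spp1 UMIs per cell of 500, one line per untreated PDOX and a grey square for cells of Nu-NB without Spp1. Bins with under 10 cells are left out. On the left each line lies higher at 3 to 9 UMIs than at 0, with means of 69144 and 38640 CPM, and on the right 6 of 7 lie lower.

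Likeness to Spp1 was also ranked over single cells. As a description, the correlation of log UMIs with Spp1 was taken across the thinned myeloid-like cells of each PDOX (2469 cells in all) for 1474 genes with a UMI in at least 5% of these cells. By the median over 7 PDOXs, Pearson's r was highest for Lpl (0.34, from 0.11 to 0.52), Apoe (0.32, from 0.24 to 0.60), Ctsd (0.30), Ccl6 (0.25) and Fth1 (0.25), which encodes ferritin heavy chain. It was lowest for P2ry12 (-0.23, from -0.29 to -0.04), Malat1 (-0.20), Lpcat2 (-0.13), Gpr34 (-0.12) and the transcription factor gene Maf (-0.12). Cells of a PDOX share a library, and the effect of the depth of 500 UMIs on these values was not tested.

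The receptors of osteopontin were spread over the classes of the TME. Itgb1, the beta chain of many matrix receptors, had a median of 2172 CPM in mural-like and 1088 CPM in endothelial-like cells of the PDOXs, against 417 CPM in myeloid-like cells. Itgb5, a partner of Itgav, had its highest median in myeloid-like cells, 381 CPM (355 in T16 to 804 in T192), against 17.5 CPM in endothelial-like and 64.7 CPM in astrocyte-like cells. Itgav had 79.1 CPM in myeloid-like, 54.6 CPM in astrocyte-like and 169.0 CPM in OPC-like cells, and Itgb8 21.4, 261.6 and 232.4 CPM in the same classes. Of the receptors of the adjacent site, Itga4 had medians of 119.0 CPM in mural-like and 96.0 CPM in endothelial-like cells, and Itga9 107.7 CPM in OPC-like and 7.13 CPM in myeloid-like cells. Cd44 had 27.5 CPM in myeloid-like and 40.6 CPM in astrocyte-like cells, with 361 CPM in those of T192. Itgb6 is not listed in the files of P8, T101, P3, P3TMZ and T16 and Itga8 not in that of P3TMZ, which is not a level of 0. Between Spp1-high and Spp1-negative cells, Itgb1 and Itgb5 differed by -0.02 ± 0.21 and -0.04 ± 0.22 (log2FC ± SE), and the other receptors were not tested, Itgb6 and Itga8 because not every PDOX file lists them and the rest because of low counts.

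With 1 normal brain, the comparison of 7 PDOXs with Nu-NB called 0 of 9509 genes in either direction (edgeR's quasi-likelihood test, FDR ≤ 0.01, |log2FC| ≥ 1; 0% of genes tested), with 1859 at an unadjusted p below 0.05, while DESeq2 called 207 higher and 48 lower. In simulated data of this design edgeR recovered 0% of genes changed 4-fold, so its count says nothing about single genes, and values are given as they stand. Fam20c, the kinase that phosphorylates osteopontin, had 82.4 ± 36.7 CPM in myeloid-like cells of the PDOXs (SD, n = 7, from 35.3 to 135.0) and 2.41 CPM in Nu-NB, where it rests on 1 UMI, higher in 7 of 7 (log2FC 5.28 ± 1.17, edgeR FDR = 0.0896). Ctsd had 11306 ± 5917 against 2356 CPM (7 of 7), Mmp12, a macrophage metalloprotease, 71.3 ± 60.3 against 9.65 CPM (6 of 7), and Tgm2, a transglutaminase, 56.6 ± 60.6 against 48.3 CPM (3 of 7). Cd44 had 30.1 ± 20.96 against 12.1 CPM (5 of 7). Itgav went the other way, with 74.5 ± 14.2 CPM in the PDOXs and 147.2 CPM in Nu-NB, above in 0 of 7, and so did Itgb1 with 420.3 ± 68.9 against 567 CPM.

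The neighbours of Spp1 on chromosome 5, Ibsp, Dmp1, Mepe and Dspp, encode the other acidic phosphoproteins of bone and teeth with an RGD motif, and few UMIs were counted for them. In all barcodes of the 9 files Spp1 had 87685 UMIs, and Dmp1, listed in each of them, 172. Ibsp had 6 UMIs in the 2 files that list it, Dspp 3 in 3 files and Mepe 1 in 1 file.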

How the data were processed

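The authors separated mouse from human reads by mapping to both genomes and deposited raw UMI counts per gene and cell barcode for the mouse cells of each sample, without normalization. GEO's processing notes name STAR and GRCm38 (mm10). Symbols unknown to the RefSeq table were renamed where a synonym was unique, which brought the genes listed in every file from 12580 to 12954. A cell needed 200 or more detected genes and no more than 30% of UMIs from mitochondria, and the 5% with the highest scrublet score per sample were left out. Cells were clustered with scanpy 1.11.5 and leidenalg 0.10.2 (seed 1, resolution 1, 20 neighbors, 30 components from 2000 variable genes, no batch correction), leaving out Spp1 and the listed genes that are no markers, in 24 clusters and 59 after mixed ones were clustered once more.

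A cluster took a class when the class's markers were at least 3 times the median cluster, 2 or more were found in 50% of the cells (30% for kinds of leukocytes) and at least 3 were detected. A cluster meeting several rules was called mixed. This naming rule was set after the clusters had been seen, and Spp1, the gene lists and the tests were chosen with earlier results of these data known.

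Levels are CPM over genes listed in every file (every PDOX file, Spp1 left out, for Spp1-high and Spp1-negative cells), before TMM scaling and gene filters, with exact Poisson intervals, and shares have exact binomial intervals, all of 95% and covering counting error only. UMIs summed per PDOX were compared by edgeR 4.0.16 (TMM, filterByExpr) on R 4.3.3, with DESeq2 1.42.0 as an alternative, after a test on simulated data, where 75.9% of genes changed 2-fold and 100% of those changed 4-fold were recovered in the comparison of Spp1-high with Spp1-negative cells. The PDOX is a block there because both sums come from the same mouse. Each PDOX is 1 library, so that p-values measure the spread between these libraries. T192 and T233, from a single patient, entered the fits as separate PDOXs. Total UMIs per file were 1294068 to 8410580. Named genes are Spp1, the 10 largest changes in each direction among called genes at 100 CPM or more that changed alike in each PDOX, the 5 genes most and least like Spp1, and members of the lists. Other called genes were named after their values were seen. Not analysed here were T347, T470, GL261 and BL6/N samples. Values of some single genes are not reported here.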

Additional observations from a re-analysis of the deposited data

Results flagged for a closer look

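Of 38 sets of PDOX values checked for a sample far from the others by Dixon's ratio at the 95% level, 5 held one, and chance alone would flag about 1 in 20. Spp1 in mural-like cells was 1332 CPM in T233, where 5 UMIs were counted in 11 cells, against 0 to 132.2 CPM in the other PDOXs. Spp1 in astrocyte-like cells was 668 CPM in T192 against 0 to 218.7 CPM in the others, beside 6836 CPM of pan-myeloid markers in these cells, which was the highest of the 6 PDOXs. Between Spp1-high and Spp1-negative cells, Pld3 differed by 2.80 on the log2 scale in P3 against 0.55 to 1.5 elsewhere, and P2ry12 by -3.86 in P13 against -2.02 to -0.82. Itga9 in myeloid-like cells was 14.1 CPM in P13 against 4.27 to 7.54 CPM.

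Barcodes with under 200 detected genes, which were not taken as cells, held Spp1 above the 15.0 CPM of Nu-NB in P8 (2588 CPM), T101 (181.9 CPM), T192 (1655 CPM), T233 (3183 CPM), P3 (3754 CPM) and T16 (99.2 CPM).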

How the results depend on the processing

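With other cell, doublet and marker filters, other depths and T192 and T233 averaged, the mean Spp1 level was 4896 to 6767 CPM and the mean share 43.2 to 67.8%, which is within the SD between PDOXs, itself wide. The mean of other classes, 288.8 CPM, was 313 CPM with at least 500 detected genes and 454 CPM without doublet removal. Without one PDOX the mean level was 5201 to 7157 CPM, the mean share 48.8 to 59.6% and the mean of other classes 206 to 329 CPM.

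For Spp1-high against Spp1-negative cells, 15 genes were higher and 5 lower. Counts were 12 lower after thinning to 300 UMIs, 8 lower with another seed or with P3TMZ added, 15 lower without monocyte-like, border-associated macrophage-like and cycling clusters, 25 higher and 14 lower without doublet removal, 5 and 2 with at least 500 detected genes, 9 higher without a filter on low genes, and 2 higher and 1 lower after thinning to 1000 UMIs, where P8, T192 and P13 alone had enough cells. Without the replicate block for the PDOX 0 genes passed in either direction in edgeR, and 91 had an unadjusted p below 0.05. Leaving out each PDOX gave 7 to 17 higher and 1 to 6 lower: 7 higher without P8, 8 higher and 1 lower without T233, 3 lower without P13. Of 322 values of single genes under the alternatives 242 stayed on their side of the threshold, 80 lost the call and 0 turned. P2ry12, Cst7, Lpl and Ccl6 kept the call in 18 of 20 alternatives, Colec12 in 8 of 17 and Pld3 in 6 of 16.

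For PDOXs against Nu-NB, 0 genes passed in edgeR. DESeq2 called 207 higher and 48 lower, no filter gave 1 lower, and leaving out each PDOX gave 0 to 13 higher and 0 to 39 lower, the highest counts without P8. The causes were not tested. Median depths of 521 to 1303 UMIs limit the test to abundant genes, and counts of 3′ ends cannot separate transcripts of Spp1.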
